A study of Saccharomyces cerevisiae with 16 samples.

Results

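The comparison described here is the interaction between a histone H3 mutation and the shutoff of YFH1 in budding yeast, Saccharomyces cerevisiae: how far the change of each transcript after YFH1 shutoff depended on the H3 genotype. It was read from the deposited gene counts as the YFH1 response in H113N (YFH1-off minus YFH1 on) minus the YFH1 response in WT, and it drew on all 16 of the 16 libraries of the series. Polyadenylated RNA was sequenced in 4 groups of 4 replicates, numbered 2 to 5. The group H3 H113N YFH1-off carried the genotype H3H113N with YFH1 behind the GAL1 promoter, p(GAL1)-YFH1. The group H3 H113N carried H3H113N with YFH1 on, H3 WT YFH1-off carried p(GAL1)-YFH1 with unchanged H3, and H3 WT was wild type for both. Whether both H3 genes carry the change, and which strain lies behind all 4 groups, is not given in the sources used here. The growth protocol is attached to all samples but speaks of YFH1-off cells alone: they came from YPG, were set to an OD600 of 1 in SC medium at 30 °C, were brought back to that density every 12 h over 36 h, and grew for a last 8 h, 44 h in total. The shutoff and the promoter swap in the strain cannot be told apart, since no library has the GAL1 promoter with YFH1 on.

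YFH1 encodes frataxin, a mitochondrial protein that helps to assemble iron-sulfur clusters, the cofactors of aconitase, of several respiratory subunits and of Leu1 and Lys4 in amino acid synthesis. When cluster assembly fails, the transcription factors Aft1 and Aft2 stay active and turn on the iron regulon, the genes for iron uptake and iron sparing. In turn, when less heme is made, the heme-dependent activators Hap1 and Hap2/3/4/5 support fewer respiratory genes while hypoxic genes are no longer repressed. The title of the series ties H3 to the reduction of cupric copper, and the design asks whether the answer of the cell to frataxin loss differs when that activity is disturbed by H113N.

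For every gene 4 differences were compared on the log2 scale. They were the YFH1 response in H113N, the YFH1 response in WT, the end point difference (H113N YFH1-off minus WT YFH1-off) and the baseline difference (H113N minus WT, both with YFH1 on). The interaction equals the first difference minus the second, and also the third minus the last. A gene was called when its BH-adjusted p (Benjamini-Hochberg over all tested genes) was below 0.05 in edgeR's quasi-likelihood test. A response was classed as weaker in H113N when the WT response and the interaction were called with opposite signs, and as reversed when the responses of both genotypes and the interaction were called and the responses had opposite signs. It was classed as stronger when the H113N response and the interaction were called with the same sign and the gene was not weaker or reversed. It was classed as similar when both responses were called with the same sign, the interaction was not, and its 95% interval lay within 1.5-fold in either direction. A response that met none of these was left undecided. Nothing in the labels says that replicates came from separate cultures, so p-values measure the spread between these samples, and in bulk RNA fewer cells of a kind and less RNA per cell cannot be told apart.

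WT replicate 2 stood apart from its group: 599 of 4796 well-expressed genes (12.5%) lay more than 1.5-fold from the mean of the other 3 WT libraries, against 0 to 97 genes in each of the other 15 libraries. Results that rest on it are given with and without it. The 4 H113N libraries with YFH1 on had a higher median over the genes of chromosome I (by 0.14 to 0.30 on the log2 scale against the rest of the genome). The same held for chromosome II (by 0.17 to 0.29), while chromosome II in the other 12 libraries lay between -0.016 and 0.019. Position along the chromosome was not examined. Chromosome I was less clearly set apart: the other 12 libraries lay between -0.03 and 0.11, with WT YFH1-off replicate 5 the highest. The genes of these chromosomes had a median interaction of -0.22 on I and -0.16 on II, against 0.011 over all tested genes, and the chromosome is given beside any gene named from them. Total counts ran from 6694390 to 10663540 per library, which puts 3 counts at 0.279 to 0.487 CPM (counts scaled to a common library size by TMM).

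**Figure D1:**
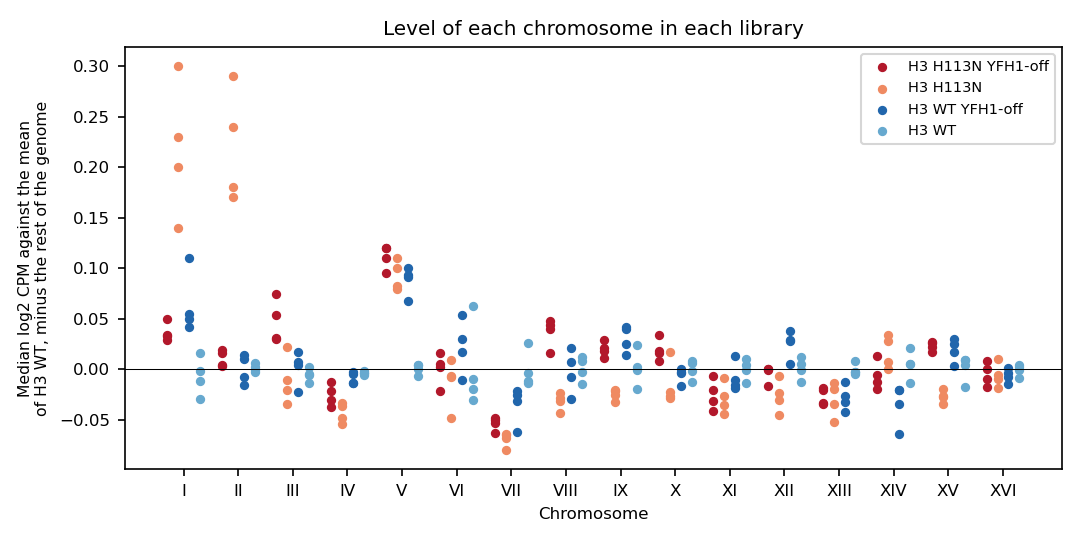
Each point is 1 library; the y axis is the median log2 CPM of the genes of a chromosome against the mean of the H3 WT libraries, minus the same for the rest of the genome. The 4 H3 H113N libraries with YFH1 on stand at 0.14 to 0.30 on chromosome I and at 0.17 to 0.29 on chromosome II.

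Over replicates 2 to 5, YFH1 had 9.31, 11.2, 9.03 and 12.7 CPM in H113N YFH1-off, 49.8, 52.5, 58.5 and 46.5 CPM in H113N, 5.86, 7.14, 8.93 and 6.71 CPM in WT YFH1-off and 67.9, 63.2, 62.9 and 59.9 CPM in WT. The groups did not overlap, and every H113N YFH1-off library lay above every WT YFH1-off library, though by a narrow margin between the lowest and the highest of them (9.03 against 8.93 CPM). The YFH1 response was -2.30 in H113N and -3.14 in WT on the log2 scale, and the interaction was 0.84 (SE 0.17, edgeR BH-adjusted p = 0.00113), so the transcript itself belongs to the class weaker. This difference in residual YFH1 goes with every weaker response below, and its part in them was not tested.

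Of 5876 tested genes, 1209 (20.6%) responded to YFH1 shutoff in H113N and 2909 (49.5%) in WT. The interaction was called for 1808 genes (30.8%), 998 of them positive (17%) and 810 negative (13.8%). Most of these were weaker responses: 1494 genes (25.4%) were weaker in H113N, of which 698 (11.9%) rose and 796 (13.5%) fell in WT. A response of opposite sign was found for 106 genes (1.8%), of which 26 (0.442%) rose and 80 (1.36%) fell in WT. Stronger responses were found for 146 genes (2.48%), of which 139 were called in H113N alone, and similar responses for 326 genes (5.55%), 164 of them rising (2.79%) and 162 falling (2.76%) in WT. A further 1166 responding genes (19.8%) met none of these definitions, and 2576 genes (43.8%) showed neither a response nor an interaction. Among the weaker genes that rose in WT the median response was 0.11 in H113N and 0.67 in WT; among those that fell it was -0.036 in H113N and -0.60 in WT. In 389 of the 1494 weaker genes (26%) the response was also called in H113N, and in 961 (64.3%) it had the sign of the WT response. Without WT replicate 2 the interaction was called for 2255 genes and reversed responses numbered 175, the single class whose count moved by more than 1.5-fold without it.

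**Figure D2:**
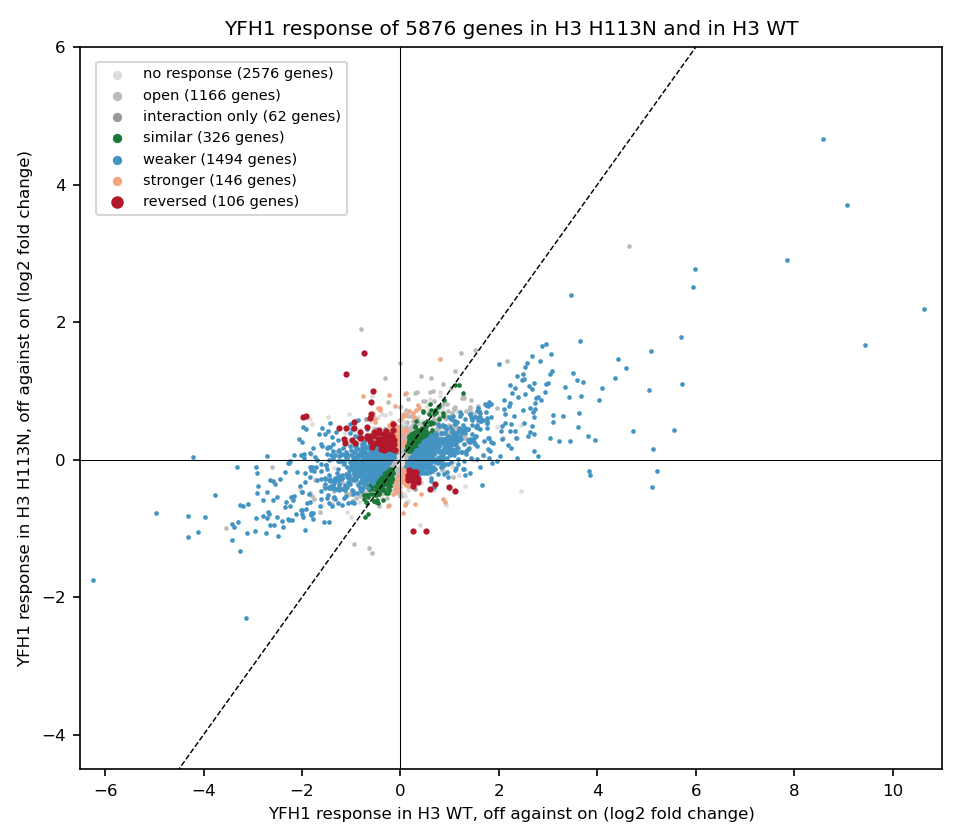
Each point is a tested gene, with its YFH1 response in H3 WT on the x axis and in H3 H113N on the y axis (log2 fold change, YFH1-off against on); the dashed line marks equal responses. The 1494 weaker genes lie toward the horizontal axis from the dashed line, the 326 similar genes along the line, and the 106 reversed genes above the horizontal axis on the left and below it on the right.

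Whether the genotypes differed before the shutoff or after it was asked of the 1808 genes with a called interaction. The end point difference alone was called for 660 of them (36.5%; 11.2% of all tested genes), the baseline difference alone for 440 (24.3%; 7.49% of all), both for 662 (36.6%; 11.3% of all) and neither for 46. Over all tested genes the end point was called for 3078 (52.4%) and the baseline for 2716 (46.2%). Among the 1494 weaker genes the end point was called with H113N YFH1-off on the side of WT with YFH1 on for 1066 (71.4%), and on the other side for 63 (4.22%). The baseline was called with H113N already on the side of WT YFH1-off for 716 (47.9%), and on the other side for 162 (10.8%). The definition of the class favours these sides, because the interaction of a weaker gene opposes its WT response. These counts are therefore no separate evidence. The end point difference was the larger in size for 957 of the 1494 (64.1%). The medians of gene lists given below are to be read beside those of all tested genes, which were 0.023 for the H113N response, 0.0087 for the WT response, 0.011 for the interaction, 0.0055 for the end point and 0.0019 for the baseline. Gene groups divided by this measure, as the plots of group medians show. Cytochrome bc1, cytochrome c oxidase, a-specific and pheromone genes had end point medians above 0 and baseline medians near 0. Iron and hypoxic genes had medians of opposite signs at the 2 points. Not every respiratory list followed bc1: without WT replicate 2, ATP synthase genes had medians of 0.38 at the end point and 0.27 at baseline. A median near 0 can hold members called in both directions: of the 7 a-specific genes 7 were higher in H113N at the end point, and 3 were higher and 3 lower at baseline, and of the 22 pheromone genes 20 were higher and 2 lower at the end point, and 8 were higher and 3 lower at baseline.

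**Figure D3:**
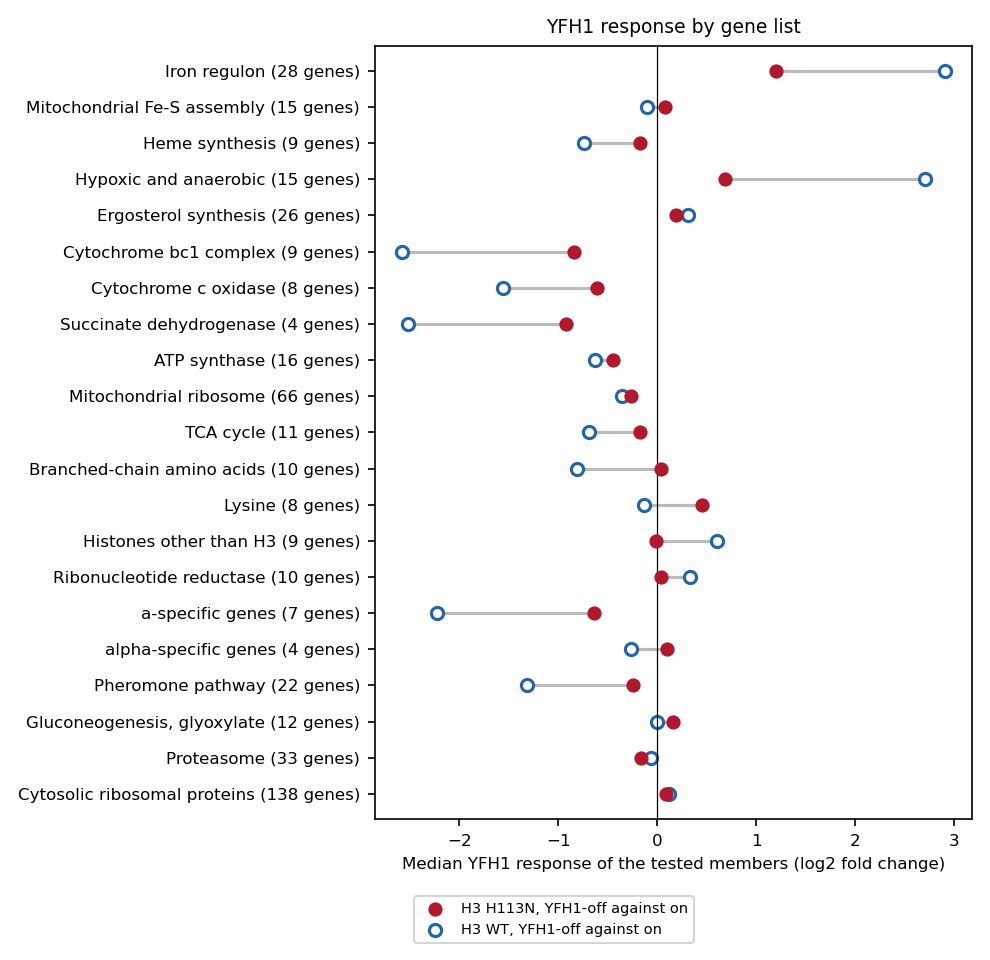
Median YFH1 response of the tested members of gene lists (log2 fold change), in H3 H113N (filled) and in H3 WT (open). The lists farthest from equal responses are the hypoxic, iron, cytochrome bc1, a-specific and succinate dehydrogenase genes; ATP synthase and mitochondrial ribosome genes have nearly equal medians.

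**Figure D4:**
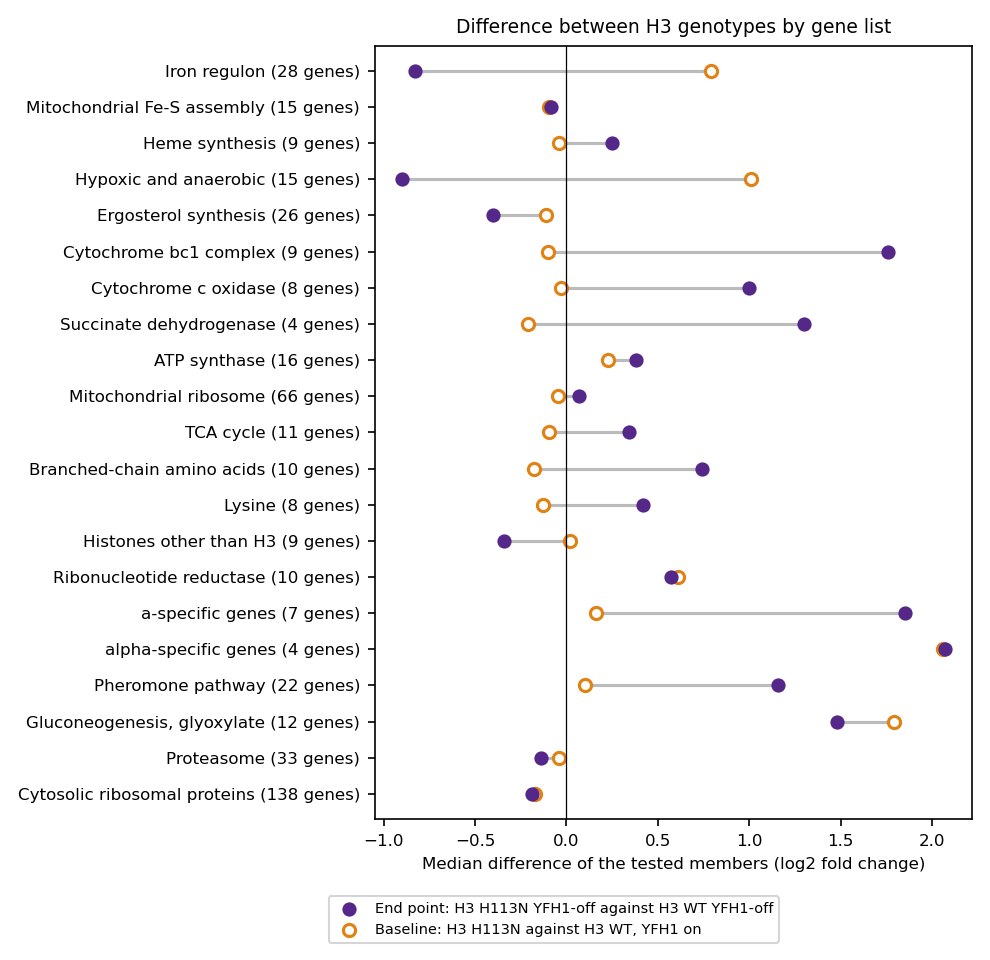
Median difference between H3 H113N and H3 WT for the same lists (log2 fold change), at the end point with YFH1 off (filled) and at baseline with YFH1 on (open). Cytochrome bc1, cytochrome c oxidase, a-specific and pheromone lists sit near 0 at baseline and above 0 at the end point. Iron and hypoxic lists lie above 0 at baseline and below 0 at the end point. Gluconeogenesis and alpha-specific lists lie above 0 at both.

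The iron regulon rose in both genotypes and less so in H113N. Of its 28 tested members 27 rose in H113N and 27 in WT (11.8% and 24.5% of all tested genes rose), and 26 were weaker in H113N. The median response was 1.20 in H113N and 2.91 in WT, the median interaction -1.54, the median end point difference -0.83 and the median baseline difference 0.79. H113N cells with YFH1 on thus stood above WT (22 members called higher, 1 lower), and H113N YFH1-off cells stood below WT YFH1-off (21 called lower, 1 higher); 17 members were called at both, 5 at the end point alone and 5 at baseline alone. The members named after their values were seen are the 2 that were not weaker. The vacuolar iron exporter SMF3 was undecided, with 0.74 in H113N and 1.08 in WT. FRE4, a ferric reductase, was reversed, with a response of 0.84 in H113N and -0.59 in WT. Without WT replicate 2 the median interaction was -1.37 and the median baseline difference 0.60. In that fit 26 members were weaker, 1 reversed, 1 similar and 0 undecided.

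LSO1, a small protein of the iron response, had the interaction of largest size in the list. Its promoter is shown because it holds the letters TGCACCC, the core bound by Aft1 and Aft2 (in capitals), at -145 from the start codon. The window runs from 250 bases before the start codon to 50 after it, on the minus strand at chrX:448709-449008 of RefSeq assembly R64, which is the sacCer3 build named in the submitters' processing notes.

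LSO1: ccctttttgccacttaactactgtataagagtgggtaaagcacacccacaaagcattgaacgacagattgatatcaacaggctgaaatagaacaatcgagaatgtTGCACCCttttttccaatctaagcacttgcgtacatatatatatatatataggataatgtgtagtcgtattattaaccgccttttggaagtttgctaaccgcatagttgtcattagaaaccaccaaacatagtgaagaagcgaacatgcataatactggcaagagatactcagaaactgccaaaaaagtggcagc

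The level of LSO1 was 27.3, 29.8, 28.5 and 38.4 CPM in H113N YFH1-off and 1.83, 1.55, 1.64 and 4.44 CPM in H113N, against 288, 309.5, 381 and 388 CPM in WT YFH1-off and 0, 0.62, 1.33 and 0.566 CPM in WT. The 4 groups did not overlap, but the highest WT library came near the lowest H113N library, and the WT values rest on a few counts each. The response of LSO1 was 3.70 in H113N and 9.07 in WT, and the interaction was -5.38 (SE 0.575, edgeR BH-adjusted p = 2.12e-06; -6.03 to -4.88 over the fits that left out 1 library each). FIT1, a cell wall mannoprotein that retains siderophore iron, averaged 485.3 ± 42.6 CPM in H113N YFH1-off, 19.1 ± 2.89 in H113N, 4186 ± 291 in WT YFH1-off and 10.9 ± 2.28 in WT (SD, n = 4 each). Its response was 4.67 in H113N and 8.59 in WT, with an interaction of -3.92 (SE 0.175, edgeR BH-adjusted p = 9.36e-11). The same letters were found on either strand in 13 of the 28 promoters of the list (46.4%), in 34 of 687 promoters of genes that rose in WT and were weaker (4.95%) and in 75 of all 5630 promoters searched (1.33%).

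ISU2 stood at 65.2, 67.8, 70.9 and 83.5 CPM in the H113N YFH1-off libraries and at 30.1, 30.6, 34.4 and 38.4 CPM in the H113N libraries. In WT YFH1-off it stood at 204, 194, 226 and 236 CPM, and in WT at 26.8, 23.8, 28.8 and 30.7 CPM. ISU2 encodes a scaffold on which clusters are built. Every WT YFH1-off library was above every H113N YFH1-off library, and the 2 groups with YFH1 on lay close together and overlapped. The response of ISU2 was 1.10 in H113N and 2.96 in WT, with an interaction of -1.86 (SE 0.142, edgeR BH-adjusted p = 4.82e-08). In the mitochondrial assembly list, which holds ISU1 and ISU2 as well, 11 of 15 members were weaker, 5 of which rose and 6 of which fell in WT. NFU1, a cluster carrier, was among the falling ones, with -0.41 in H113N and -1.41 in WT. Of the 10 cytosolic assembly genes only DRE2 and CIA1 were weaker, with interactions of 0.48 and 0.22, and 6 showed no response. The call of CIA1 was lost in 8 of the 16 fits that left out 1 library each (0.17 to 0.24). Of 14 tested copper genes, 3 of which (FRE1, ATX1 and CCC2) are also in the iron list, 10 were weaker, with a median interaction of -0.84 and a median baseline difference of 0.13. Among them were CTR2, a vacuolar copper transporter (0.56 in H113N, 1.62 in WT), and CCS1, the copper chaperone of superoxide dismutase (0.16 in H113N, 1.13 in WT), while SOD1 itself was similar (0.31 in H113N, 0.50 in WT; weaker without WT replicate 2, with an interaction of -0.26).

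Hypoxic and anaerobic genes, which are repressed in aerated wild type cells with heme though not all silent, were induced in WT and much less in H113N. Of 15 tested members, 11 rose in H113N and 13 in WT, and 12 were weaker. The median response was 0.69 in H113N and 2.71 in WT, with a median end point difference of -0.90 and a median baseline difference of 1.01. The 3 that were not weaker, named after their values were seen, were PAU23, COX5B and CYC7. DAN1, a cell wall mannoprotein made without oxygen, had 9.86 ± 1.26 CPM in H113N YFH1-off, 2.15 ± 0.387 in H113N, 304 ± 37.4 in WT YFH1-off and 3 counts or fewer in every WT library. Against the floor of 3 counts per library (0.355 CPM on average), DAN1 was at least 857-fold higher in WT YFH1-off than in WT, and at least 6.07-fold higher in H113N than in WT with YFH1 on. Its promoter, on the minus strand at chrX:709658-709957 of RefSeq R64, is shown with 1 match to the core ATTGTT of the hypoxic repressor Rox1 (at -239, read on the other strand) and 1 match to the Upc2 site TCGTATA (at -203, likewise) in capitals.

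DAN1: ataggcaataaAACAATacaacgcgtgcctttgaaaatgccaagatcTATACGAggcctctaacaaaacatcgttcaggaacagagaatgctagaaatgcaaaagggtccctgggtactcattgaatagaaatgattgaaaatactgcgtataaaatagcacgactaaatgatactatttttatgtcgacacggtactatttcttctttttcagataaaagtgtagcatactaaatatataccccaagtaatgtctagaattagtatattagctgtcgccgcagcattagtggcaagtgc

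Among all 5630 promoters 35% held the Rox1 letters and 4.21% the Upc2 letters, and in the hypoxic list 7 and 2 of 15 did.

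Over replicates 2 to 5, AUS1 had 81, 83.8, 88.8 and 83.2 CPM in H113N YFH1-off, 73.6, 84.9, 79.7 and 70 CPM in H113N, 439, 474, 544 and 436 CPM in WT YFH1-off and 79.1, 65.3, 74.9 and 69.4 CPM in WT. AUS1 encodes a sterol importer. The WT YFH1-off libraries stood alone, and the other 3 groups lay within 65.3 to 88.8 CPM. The response of AUS1 was 0.13 in H113N, which was not called (edgeR BH-adjusted p = 0.295), and 2.71 in WT, with an interaction of -2.58 (SE 0.114, edgeR BH-adjusted p = 9.36e-11). PAU5, a seripauperin, differed in where the gap lay: with YFH1 on it was higher in H113N (14.4 ± 2.19 CPM) than in WT (0.89 ± 0.326 CPM), and its end point difference of -1.13 was smaller in size than its baseline difference of 4.0; 24.7% of its 50-base words recur in the genome, so its counts may hold reads of related genes.

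Ergosterol synthesis, which needs heme, iron and oxygen, had genes that moved in both directions. Of 26 genes 12 rose and 4 fell in H113N, while 14 rose and 9 fell in WT; 19 were weaker and 3 reversed. UPC2, the sterol-responsive activator, was 82.1 ± 4.36 CPM in H113N YFH1-off, 71.2 ± 4.28 in H113N, 271.4 ± 11.2 in WT YFH1-off and 59.8 ± 8.43 in WT (SD, n = 4 each), a response of 0.21 in H113N, not called, and of 2.18 in WT. IDI1, of the early isoprenoid steps, fell in both genotypes, by 0.27 on the log2 scale in H113N and by 1.34 in WT. In heme synthesis 7 of 9 genes were weaker. Of these HEM2 and HEM12 rose in WT (0.39 and 0.2), and the others fell. The calls of HEM2 and HEM12 (interactions of -0.25 and -0.17) were lost under scaling by library size alone. The call of HEM12 was also lost in 10 of the 16 fits that left out 1 library each. The last enzyme, ferrochelatase HEM15, responded by -0.58 in H113N and -2.80 in WT (interaction 2.22, SE 0.117, edgeR BH-adjusted p = 5.46e-10). HEM15 was also lower in H113N before shutoff, with a baseline difference of -1.01 and an end point difference of 1.21. In fatty acid synthesis 7 of 10 genes were weaker, and the elongase ELO1 responded by -0.47 in H113N and -2.70 in WT.

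**Figure D5:**
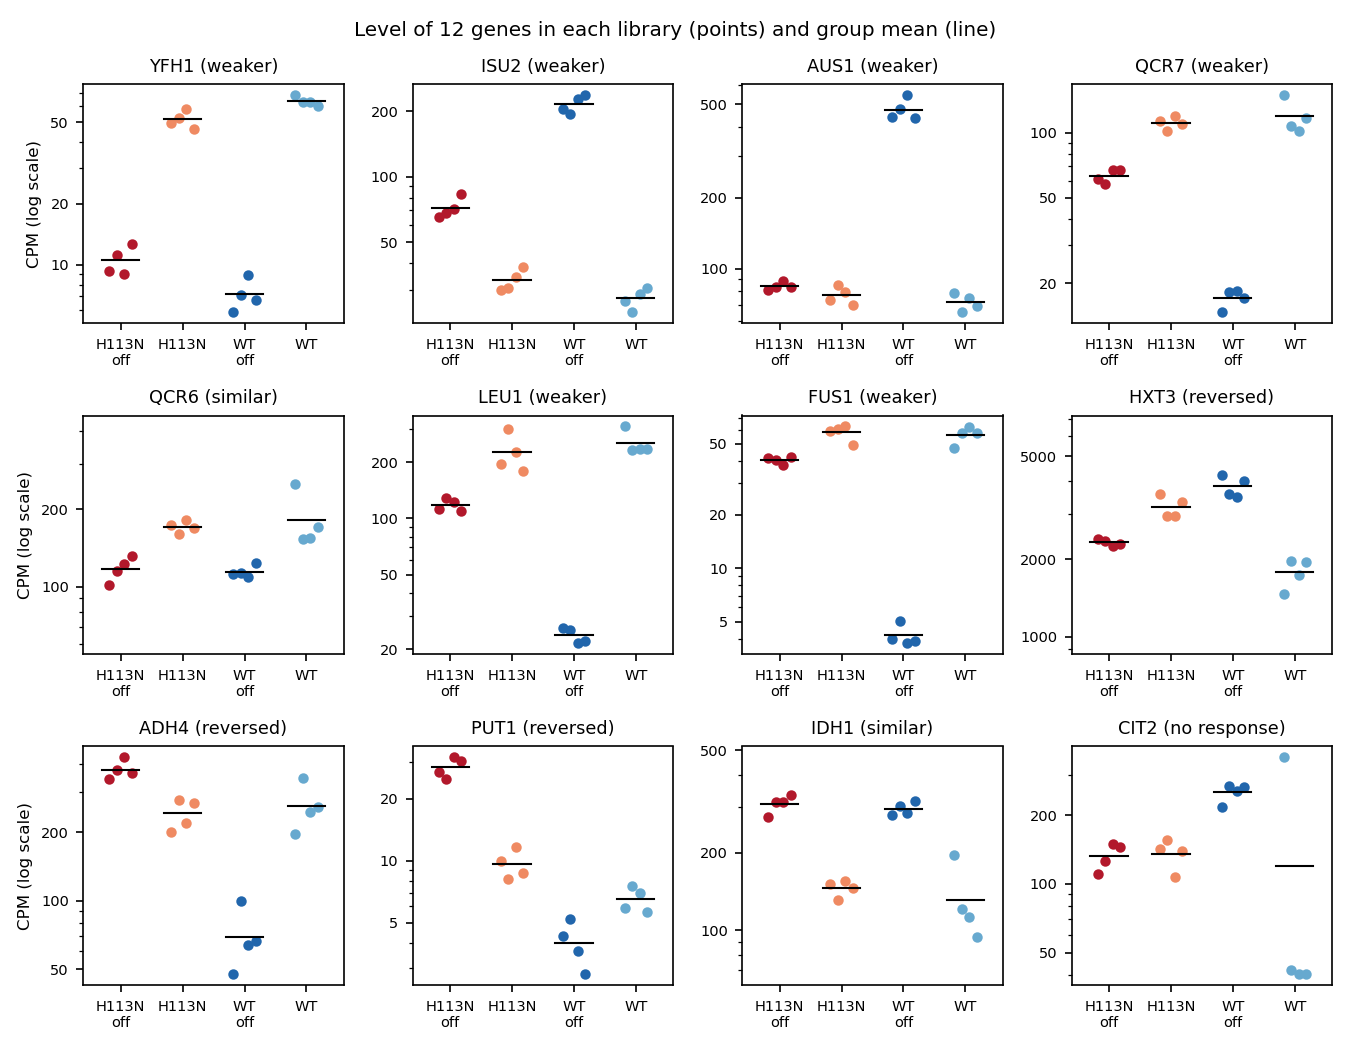
CPM of 12 genes in each library (points) and the mean of each group (line) on log axes, with the response class in the panel title; groups run from H3 H113N YFH1-off and H3 H113N to H3 WT YFH1-off and H3 WT. AUS1, QCR7, LEU1 and FUS1 move far in WT and little or partly in H113N; QCR6 and IDH1 move alike in both; HXT3, ADH4 and PUT1 move in opposite directions; CIT2 has 1 WT library at 358 CPM and the other 3 near 41 CPM.

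Respiratory subunits fell in both genotypes and fell less in H113N, with no matching difference before shutoff. All 9 cytochrome bc1 genes fell in WT and 8 in H113N (25% and 8.73% of all tested genes fell), and 8 were weaker. The median response was -0.84 in H113N and -2.58 in WT, the median end point difference 1.76 and the median baseline difference -0.10. Of the 8 cytochrome c oxidase genes 7 were weaker, with medians of -0.61 in H113N and -1.56 in WT, and COX9 was undecided (-0.60 in H113N, -0.97 in WT). Without WT replicate 2 COX9 was similar, with an interaction of 0.27. All 4 succinate dehydrogenase genes were weaker, with medians of -0.92 in H113N and -2.52 in WT. In these 3 complexes the end point alone was called for 7, 4 and 3 of the members, and both points for 1, 3 and 1. CYC1, the cytochrome c that carries electrons from bc1 to the oxidase, had the largest positive fitted interaction of all tested genes, a fold that rests on few counts in WT YFH1-off. It averaged 6.19 ± 1.35 CPM in H113N YFH1-off, 20.7 ± 0.622 in H113N, 0.341 ± 0.286 in WT YFH1-off and 27.7 ± 5.55 in WT (SD, n = 4 each), and the interaction was 4.49 (4.12 to 5.07 over the fits that left out 1 library each; SE 0.408, edgeR BH-adjusted p = 3.42e-07). Several of these genes were high in WT replicate 2, and without it the median interaction was 1.51 for bc1, 0.97 for the oxidase and 1.27 for succinate dehydrogenase, against 1.68, 1.00 and 1.60 with it.

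Within bc1, QCR7 was weaker and QCR6 similar. The promoter of QCR6 is shown because it holds the CCAAT letters read by Hap2/3/4/5 (capitals, either strand) in a gene whose response was similar. The window is on the minus strand of RefSeq R64, chrVI:224720-225019, and matches begin at -243 and -106.

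QCR6: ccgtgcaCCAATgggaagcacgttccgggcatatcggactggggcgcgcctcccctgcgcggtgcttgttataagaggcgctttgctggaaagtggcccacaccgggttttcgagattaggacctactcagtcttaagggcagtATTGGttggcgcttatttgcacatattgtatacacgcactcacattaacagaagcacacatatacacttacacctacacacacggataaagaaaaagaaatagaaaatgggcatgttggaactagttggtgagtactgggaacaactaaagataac

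The level of QCR7 was 60.7, 57.9, 66.8 and 66.8 CPM in H113N YFH1-off and 114, 102, 119 and 109.8 CPM in H113N, against 14.7, 18.4, 18.4 and 17.2 CPM in WT YFH1-off and 149, 107, 102 and 117 CPM in WT. The WT YFH1-off libraries were lowest, the H113N YFH1-off libraries intermediate, and both groups with YFH1 on overlapped. The response of QCR7 was -0.82 in H113N and -2.79 in WT, with an interaction of 1.97 (SE 0.152, edgeR BH-adjusted p = 5.64e-08). QCR6 stood at 101, 115, 122 and 132 CPM in the H113N YFH1-off libraries and at 174, 159, 181 and 168 CPM in the H113N libraries. In WT YFH1-off it stood at 112, 113.3, 109 and 123.2 CPM, and in WT at 249, 154, 154 and 169.6 CPM. Here both YFH1-off groups overlapped, and WT replicate 2 was the highest of all 16 libraries. The response of QCR6 was -0.54 in H113N and -0.67 in WT, and the interaction of 0.13 had a 95% interval of -0.24 to 0.51. The CCAAT letters were found in 7 of 9 bc1 promoters (77.8%), 7 of 8 oxidase promoters (87.5%), 4 of 4 succinate dehydrogenase promoters and also in 14 of 16 ATP synthase promoters (87.5%), against 43.7% of all promoters.

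ATP synthase was the respiratory complex in which most genes had similar responses. Of 16 genes 14 fell in H113N and 15 in WT, 10 were similar, 4 were weaker, 1 was undecided and 1 did not respond; the median response was -0.45 in H113N and -0.63 in WT, with a median interaction of 0.16 (0.057 without WT replicate 2). ATP1, the alpha subunit, on chromosome II, responded by -0.64 in H113N and -0.67 in WT. INH1, which encodes the inhibitor of the enzyme and not a catalytic subunit, was among the weaker genes, with -0.97 in H113N and -2.38 in WT. Mitochondrial ribosomal protein genes shared this pattern: of 66 genes 46 fell in H113N and 50 in WT, 31 were similar, 12 weaker and 3 stronger, with medians of -0.26 in H113N and -0.35 in WT. This list was gathered by gene name, and MRP8, among the weaker ones, may not be a ribosomal protein. Of the 6 respiratory dehydrogenases tested, which pass electrons to ubiquinone or to cytochrome c, 4 were weaker, among them the external NADH dehydrogenase NDE1, which responded by 0.056 in H113N (not called) and -2.70 in WT, with an end point difference of 3.08 and a baseline difference of 0.32.

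In the TCA cycle 6 of 11 genes were weaker, including KGD2 of the 2-oxoglutarate dehydrogenase (-0.41 in H113N, -1.44 in WT). Over replicates 2 to 5, IDH1 had 276, 314, 315 and 336 CPM in H113N YFH1-off, 151, 131, 156 and 147 CPM in H113N, 281, 303, 285 and 318 CPM in WT YFH1-off and 196, 121, 112 and 94.5 CPM in WT. IDH1 is a subunit of NAD-dependent isocitrate dehydrogenase. Both YFH1-off groups overlapped above all libraries with YFH1 on, and WT replicate 2 was the highest of those. With all libraries the gene was similar, with 1.08 in H113N and 1.18 in WT and an interaction of -0.10 (edgeR BH-adjusted p = 0.783). Without WT replicate 2, IDH1 was weaker, with a WT response of 1.44 and an interaction of -0.36 (edgeR BH-adjusted p = 0.0142). The retrograde pathway, which signals mitochondrial failure to the nucleus, also turned on that library: 0 of its 6 genes had a called interaction in edgeR (1 by an unadjusted p under 0.05, 0 in DESeq2). The level of CIT2 was 110.3, 126, 149.9 and 145 CPM in H113N YFH1-off and 142, 155, 107 and 139 CPM in H113N, against 217, 269, 254 and 266 CPM in WT YFH1-off and 358, 42, 40.5 and 40.3 CPM in WT. CIT2 encodes the peroxisomal citrate synthase that reports on this pathway. Replicate 2 was the highest of all 16 libraries and the other 3 WT libraries were the lowest, and the interaction of -1.09 was not called with all libraries (SE 0.747, edgeR BH-adjusted p = 0.298). Without WT replicate 2, CIT2 was weaker, with an interaction of -2.65 (edgeR BH-adjusted p = 2.3e-10), and so was DLD3, with -1.72 (edgeR BH-adjusted p = 7.68e-10).

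Branched-chain amino acid synthesis holds 2 iron-sulfur enzymes, Leu1 and Ilv3, and 9 of its 10 genes were weaker in H113N. Of the 10, 3 rose and 2 fell in H113N, and 3 rose and 7 fell in WT; the median end point difference was 0.74 and the median baseline difference -0.18. LEU1 stood at 112, 128, 122.8 and 109.9 CPM in the H113N YFH1-off libraries and at 196, 299.8, 228 and 179 CPM in the H113N libraries. In WT YFH1-off it stood at 26, 25.2, 21.5 and 22 CPM, and in WT at 311, 233, 236 and 235 CPM. The WT YFH1-off libraries were the lowest by far, the H113N YFH1-off libraries lay between, and the groups with YFH1 on overlapped, with WT replicate 2 above the rest of its group. The response of LEU1 was -0.93 in H113N and -3.43 in WT, with an interaction of 2.50 (SE 0.2, edgeR BH-adjusted p = 8.11e-08). ILV3 responded by -0.46 in H113N and -1.61 in WT, and ILV6, the regulatory subunit of acetolactate synthase, was similar (0.56 in H113N, 0.32 in WT).

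Lysine synthesis showed every kind of outcome. Of 8 genes 3 were reversed (LYS1, LYS9 and LYS21), 2 stronger (LYS2, on chromosome II, and LYS20), 2 weaker (LYS4 and LYS14) and 1 similar (LYS12); 6 rose in H113N, while 3 rose and 4 fell in WT. LYS4, which encodes the iron-sulfur enzyme homoaconitase, fell in WT by 1.84 on the log2 scale and responded by -0.11 in H113N, which was not called. Over replicates 2 to 5, LYS9 had 249.9, 281, 376 and 364 CPM in H113N YFH1-off, 228, 234, 240.4 and 213 CPM in H113N, 126, 119, 114 and 113.3 CPM in WT YFH1-off and 199, 198, 174 and 182 CPM in WT. LYS9 encodes saccharopine dehydrogenase. All H113N YFH1-off libraries were above all H113N libraries, and all WT YFH1-off libraries were below all WT libraries. The response of LYS9 was 0.47 in H113N and -0.67 in WT, with an interaction of 1.15 (SE 0.146, edgeR BH-adjusted p = 1.45e-05). LYS1, which acts last in the pathway, rose by 1.00 in H113N and fell by 0.55 in WT, with an end point difference of 1.56 and a baseline difference of 0.0033. LYS20 and LYS21 encode isozymes of homocitrate synthase that share 37.8% and 36.7% of their 50-base words with other loci, so their counts are uncertain: LYS20 rose by 1.46 in H113N and 0.79 in WT, and LYS21 rose by 0.43 in H113N and fell by 0.15 in WT.

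Other reversed genes were spread over metabolism. The level of ADH4 was 342, 378, 428 and 365 CPM in H113N YFH1-off and 201, 278, 220.3 and 271 CPM in H113N, against 47.5, 99.7, 63.9 and 66.2 CPM in WT YFH1-off and 196, 348, 247 and 259.8 CPM in WT. ADH4 encodes a zinc-regulated alcohol dehydrogenase. The YFH1-off groups lay on opposite sides of the groups with YFH1 on, except that 1 WT library (347.5 CPM) reached above the lowest H113N YFH1-off library. The response of ADH4 was 0.64 in H113N and -1.93 in WT, and the interaction of 2.57 (SE 0.269, edgeR BH-adjusted p = 1.66e-06) lay at the end point, which differed by 2.45 against -0.11 at baseline. PUT1 stood at 26.9, 24.9, 31.8 and 30.5 CPM in the H113N YFH1-off libraries and at 9.96, 8.13, 11.7 and 8.76 CPM in the H113N libraries. In WT YFH1-off it stood at 4.29, 5.2, 3.66 and 2.81 CPM, and in WT at 5.87, 7.56, 7 and 5.66 CPM. PUT1, proline oxidase, began higher in H113N and moved further apart. Its response was 1.56 in H113N and -0.74 in WT, with an end point difference of 2.87 and a baseline difference of 0.57. EEB1, which makes ethyl esters of fatty acids, averaged 356.1 ± 25.2 CPM in H113N YFH1-off, 150.6 ± 14.6 in H113N, 110.7 ± 13 in WT YFH1-off and 237.8 ± 14.4 in WT (SD, n = 4 each), a response of 1.24 in H113N and -1.11 in WT.

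In the other direction, HXT3 had 2402, 2356, 2244 and 2287 CPM in H113N YFH1-off, 3571, 2928, 2941 and 3320.0 CPM in H113N, 4235, 3577, 3491 and 4010.0 CPM in WT YFH1-off and 1458, 1962, 1733 and 1953 CPM in WT. HXT3 encodes a low-affinity glucose transporter; 14.9% of its words recur elsewhere. H113N YFH1-off libraries fell below all H113N libraries, WT YFH1-off libraries rose above all WT libraries, and the groups crossed: with YFH1 on H113N was the higher genotype, with YFH1 off the lower. The response of HXT3 was -0.46 in H113N and 1.11 in WT, with an interaction of -1.57 (SE 0.131, edgeR BH-adjusted p = 1.24e-07), an end point difference of -0.72 and a baseline difference of 0.84. TIP1 and GPX2, a cell wall protein and a phospholipid hydroperoxide peroxidase, were reversed likewise (-1.03 and -0.40 in H113N, 0.52 and 0.99 in WT), but both lie on chromosome II. Of the 26 genes that rose in WT and fell in H113N, 4 lie on chromosome I and 13 on chromosome II, and a fit without the genes of both chromosomes classed 70 genes as reversed (66 of them also reversed in the fit of all genes), 13 of which rose in WT. Of the 80 reversed genes that fell in WT, 2 lie on chromosome II and 0 on chromosome I. TRX1, a cytosolic thioredoxin, on chromosome XII, also reversed (0.28 in H113N, -0.62 in WT), as did ACS2, the acetyl-CoA synthetase of glucose-grown cells (0.35 in H113N, -0.61 in WT), and ADH2 (0.41 in H113N, -0.82 in WT), whose baseline difference of 4.58 was far larger than either response; 14% of the words of ADH2 recur elsewhere.

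Mating genes fell in WT and fell less, or not at the threshold, in H113N. All 7 a-specific genes, which mark cells of mating type a, fell in WT and 5 fell in H113N, and all 7 were weaker, with medians of -0.64 in H113N and -2.23 in WT. The a-specific pheromone gene MFA1 was present in every group, at 75.4 ± 4.11 CPM in H113N YFH1-off, 124.3 ± 7.37 in H113N, 26.6 ± 3.35 in WT YFH1-off and 99.7 ± 5.02 in WT (SD, n = 4 each), while the alpha pheromone gene MF(ALPHA)1 averaged 12.7 ± 1.54 CPM in H113N YFH1-off, 32.7 ± 2.63 in H113N, 0.803 ± 0.497 in WT YFH1-off and 1.12 ± 0.276 in WT. Of 22 pheromone pathway genes 7 fell and 1 rose in H113N, 20 fell and 2 rose in WT, and 21 were weaker; 11 differed at the end point alone and 10 at both. The median response was -0.24 in H113N and -1.32 in WT, the median end point difference 1.16 and the median baseline difference 0.10. The promoter of FUS1, a cell fusion gene, is shown on the plus strand at chrIII:71553-71852 of RefSeq R64, with its 2 matches to TGAAACA, the pheromone response element bound by Ste12, in capitals at -187 and -160.

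FUS1: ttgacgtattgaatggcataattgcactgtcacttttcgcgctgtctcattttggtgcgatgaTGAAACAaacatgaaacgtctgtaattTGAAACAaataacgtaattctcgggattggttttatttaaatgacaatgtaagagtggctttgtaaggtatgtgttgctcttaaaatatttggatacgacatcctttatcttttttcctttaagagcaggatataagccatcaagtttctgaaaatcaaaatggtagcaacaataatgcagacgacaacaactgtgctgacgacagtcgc

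Over replicates 2 to 5, FUS1 had 41.9, 40.6, 38.3 and 42.1 CPM in H113N YFH1-off, 59.1, 61, 62.8 and 49.5 CPM in H113N, 4, 5.03, 3.78 and 3.9 CPM in WT YFH1-off and 47.4, 57.6, 61.9 and 57.6 CPM in WT. The WT YFH1-off libraries lay far below all others, the H113N YFH1-off libraries lay just under both groups with YFH1 on, and the groups with YFH1 on overlapped. The response of FUS1 was -0.51 in H113N and -3.76 in WT, with an interaction of 3.25 (SE 0.151, edgeR BH-adjusted p = 1.19e-10), an end point difference of 3.30 and a baseline difference of 0.050. The protease of alpha factor, BAR1, responded by -0.64 in H113N and -3.10 in WT. PRM4, although named for its pheromone regulation, went the other way, rising by 0.87 in H113N and 4.03 in WT. The element was found in 12 of 22 pheromone pathway promoters (54.5%), 5 of 7 a-specific promoters (71.4%) and 7.28% of all promoters.

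Most histone genes rose in WT, and with all libraries none had a called response in H113N. Among the 9 histone genes other than H3, 7 rose in WT, 0 responded in H113N in edgeR (1 by an unadjusted p under 0.05, 0 in DESeq2), and 6 were weaker. The median interaction was -0.64, and -0.40 when the genes of chromosomes I and II, which include HTA2, HTB2 and HHF1, were left out. Without WT replicate 2 it was -0.53, and 5 genes were weaker and 1 reversed. The reversed gene was HHF1, on chromosome II, with a WT response of 0.35 and an interaction of -0.53, so its H113N response was called in that fit. The level of HHT2 was 636, 670.1, 669.7 and 705 CPM in H113N YFH1-off and 639.8, 638, 666 and 702 CPM in H113N, against 1143, 1227, 1224 and 1232 CPM in WT YFH1-off and 643, 698, 677 and 777 CPM in WT. HHT2, on chromosome XIV, is one of the pair of H3 genes. The WT YFH1-off libraries lay above all 12 others, with a response of 0.019 in H113N and 0.79 in WT. HHF2, its H4 neighbour, responded by 0.0067 in H113N and 0.84 in WT. The other H3 gene, HHT1, on chromosome II, was also weaker, with a WT response of 0.84 and an interaction of -0.82 (edgeR BH-adjusted p = 0.00458). Without WT replicate 2 the interaction of HHT1 was -0.66. It then differed at both points, with a baseline difference of 0.34, while HHT2 differed at the end point alone. HTA1 had its gap at baseline instead: 1141 ± 45.5 CPM in H113N YFH1-off, 1054 ± 56 in H113N, 1197 ± 48.7 in WT YFH1-off and 543.6 ± 130 in WT (SD, n = 4 each), an end point difference of -0.069 and a baseline difference of 0.95.

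Ribonucleotide reductase makes deoxynucleotides, and its small subunit Rnr2 holds iron. In a list of 10 genes for the enzyme and its regulators 7 were weaker. Without WT replicate 2 the median response of the list was 0.043 in H113N and 0.31 in WT, with a median interaction of -0.069. The falling subunits RNR2 and RNR4 therefore do not stand for the list. RNR2 stood at 461, 443, 428 and 445 CPM in the H113N YFH1-off libraries and at 589.6, 625, 588 and 539.8 CPM in the H113N libraries. In WT YFH1-off it stood at 149.8, 135, 137 and 144 CPM, and in WT at 387, 405, 364 and 396 CPM. The small subunit RNR2 fell in both genotypes, with all 4 groups apart. The response of RNR2 was -0.40 in H113N and -1.45 in WT, with an interaction of 1.06 (SE 0.0742, edgeR BH-adjusted p = 1.75e-08); it was higher in H113N at the end point (1.65) and at baseline (0.59). RNR4, the other small subunit, moved likewise (-0.23 in H113N, -1.21 in WT), and RNR3, a damage-induced large subunit, was similar (0.69 in H113N, 0.47 in WT).

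Some responses met a higher starting level in H113N. Over replicates 2 to 5, HXT5 had 24, 21, 19.7 and 24.4 CPM in H113N YFH1-off, 21.1, 21.8, 20.4 and 24.4 CPM in H113N, 9.43, 10.72, 9.84 and 12.2 CPM in WT YFH1-off and 2.99, 2.85, 3.62 and 2.72 CPM in WT. HXT5 encodes a hexose transporter of slow-growing cells. Both H113N groups overlapped, and the other 3 groups all lay above WT. The response of HXT5 was 0.022 in H113N and 1.80 in WT, with an end point difference of 1.07 and a baseline difference of 2.84. HSP30, a membrane stress protein, met at the end point: the difference there was -0.21, not called, against 1.87 at baseline. GDH3, a glutamate dehydrogenase on chromosome I, responded by 0.48 in H113N and 3.62 in WT, and it too began higher in H113N (baseline difference 1.69). GLT1, the glutamate synthase that carries iron-sulfur clusters, began lower (baseline difference -0.40) and responded by -0.59 in H113N and -2.18 in WT.

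Stronger responses in H113N were fewer than weaker ones. The level of XYL2 was 10.3, 12.3, 16.9 and 15.8 CPM in H113N YFH1-off and 10.2, 9.55, 9.52 and 9.81 CPM in H113N, against 6.86, 6.01, 6.52 and 5.63 CPM in WT YFH1-off and 7.71, 6.44, 8.21 and 7.02 CPM in WT. XYL2 encodes a xylitol dehydrogenase. The H113N YFH1-off libraries were above all others, the lowest of them only just. The response of XYL2 was 0.50 in H113N and -0.23 in WT, where it was not called. ENO2, the glycolytic enolase, rose by 0.65 in H113N against 0.046 in WT, not called, starting from a baseline difference of -0.92; 23.6% of its words recur elsewhere. The falling ones BDH2 and VID24 lie on chromosomes I and II. BDH2, with an interaction of -0.93, was not firmly placed: 9 of the 16 fits that left out 1 library each lost its call, and without WT replicate 2 it was reversed, with a WT response of 0.66 and an interaction of -1.30. UBP5, a deubiquitinase on chromosome V, responded by -0.66 in H113N and by 0.089 in WT, not called. A fit without the genes of chromosomes I and II classed 97 genes as stronger, 85 of them also stronger in the fit of all genes.

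Equal responses did not require equal levels. The similar genes named for the largest WT response included THI4, of thiamine synthesis, which rose by 0.87 in H113N and 0.89 in WT although its level was higher in H113N at the end point by 1.45 and at baseline by 1.47. HXT4, a high-affinity glucose transporter, fell by 0.84 in H113N and 0.72 in WT, with an end point difference of 1.75 and a baseline difference of 1.87. TAL1, transaldolase, averaged 361.6 ± 11.3 CPM in H113N YFH1-off, 275.8 ± 24.7 in H113N, 1174 ± 38.6 in WT YFH1-off and 988.7 ± 40 in WT (SD, n = 4 each), and rose by 0.39 in H113N and 0.25 in WT. CYB5, cytochrome b5, fell by 0.52 in H113N and 0.73 in WT.

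Some groups differed between the genotypes at both points and had few called interactions, which does not show equal responses. Of 12 gluconeogenesis and glyoxylate genes, 10 were higher in H113N at the end point and 11 at baseline (27.2% and 23% of all tested genes were higher), with medians of 1.48 at the end point and 1.79 at baseline; SFC1, the mitochondrial succinate-fumarate carrier, was the 1 with a called interaction, of -1.22. This call was lost without WT replicate 2 (-0.91, edgeR BH-adjusted p = 0.0531), without WT YFH1-off replicate 3 (-1.14) and without WT YFH1-off replicate 5 (-1.19), in a range of -1.51 to -0.91 over the fits that left out 1 library each. Responses were undecided for 3 of the 12, and for 6 without WT replicate 2. The 4 alpha-specific genes were higher in H113N at both points, by medians of 2.07 at the end point and 2.06 at baseline (1.59 and 2.03 with groups at the floor of 3 counts set to their bound), and 0 of 4 had a called interaction in edgeR (1 by an unadjusted p under 0.05, 1 in DESeq2). STE3, the a-factor receptor, was called in 5 of the 16 fits that left out 1 library each (-0.79 to -0.55 over all 16), and 3 of the 4 responses were undecided. GAL10, 1 of the galactose genes, on chromosome II, averaged 7.18 ± 0.864 CPM in H113N YFH1-off, 5.83 ± 0.971 in H113N, 1.21 ± 0.535 in WT YFH1-off and 1.09 ± 0.606 in WT, with a baseline difference of 2.40; it overlaps other annotated genes and the use of strand is not given in the sources used here. Many genes of protein synthesis had no called response in either genotype, but 43.8% of all tested genes also showed neither a response nor an interaction. This held for 45 of 53 ribosome biogenesis genes and for 69 of 138 cytosolic ribosomal protein genes, the latter a share near that of all genes. Without WT replicate 2 it held for 24 and 63 of them, against 2142 of all 5898 genes tested in that fit. There the WT response was called for 26 of the ribosome biogenesis genes and the interaction for 8. Of the ribosomal protein genes 11 rose in H113N and 59 in WT (11.8% and 24.5% of all tested genes rose). The ribosomal protein genes had medians of -0.19 at the end point and -0.17 at baseline. Their list was gathered by gene name and holds RPP1, which may not be a ribosomal protein.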

How the data were processed

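Polyadenylated RNA of 16 yeast samples was sequenced. The authors' deposited table holds raw counts per gene for each library, and a second deposited table holds their normalized counts, a signal equal to each count divided by a size factor per library. The submitters' processing notes name FastQC, cutadapt, HISAT2, featureCounts, DESeq2 and the build sacCer3; annotation, strand setting and the handling of reads with several matches are not given in the sources used here. The authors' deposited adjusted p-values, in 4 columns of the second table, were not used.

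Of 6692 genes 160 had no count, and 5876 passed edgeR's filterByExpr (about 1.174 CPM in at least 4 libraries). Counts were fitted in edgeR 4.0.16 (R 4.3.3, TMM factors, quasi-likelihood test) with 1 mean per group over all 16 libraries; p-values were adjusted by Benjamini and Hochberg over all tested genes, with a threshold of 0.05. CPM are the deposited counts scaled by the TMM-adjusted library total. The code was tested on simulated data. Totals of 6694390 to 10663540 counts limit precision, and the floor of 3 counts covers counting error only.

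The comparison and the 46 gene lists were chosen with earlier results of these data known. Genes were named by rule: YFH1 and both H3 genes; the 4 genes of each response class and direction whose interaction was largest (WT response, in the similar class), given a mean log2 CPM above 3 or equal to it and 1 sign in all 4 replicate-wise differences where the interaction was called; per list, the 2 lowest interaction p-values and the similar gene that moved most in WT; and any gene of a family of up to 9. This gave 195 genes; others named are said to be so, or mark a list's exceptions. Promoters are RefSeq R64 windows of 250 bases before to 50 after the start codon; 6008 of 6692 identifiers matched, and 5630 tested genes had a window. Motifs were searched on both strands and did not overlap in the windows shown.

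Alternatives were DESeq2 1.42.0, its size factors, library size alone, other filters, a replicate block, stricter thresholds, each library left out in turn, and the genes of chromosomes I and II left out. Libraries that share a replicate number deviated from their groups with a mean correlation of 0.0402 (-0.203 to 0.228 over 24 pairs, 8 of them over 0.1). For libraries with other numbers the mean was -0.0141. A weak mean correlation cannot exclude that the numbers pair samples, and the main fit had no replicate block.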

Additional observations from a re-analysis of the deposited data

Results flagged for a closer look

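Of 92 groups of 4 libraries (20 genes, chromosomes I and II, and the library totals), 5 held a library set far from the other 3. Chance gives about 1 in 20 groups, so 5 of 92 is close to the number that chance alone would flag. WT replicate 2 was this library for CIT2 (357.9 CPM), LEU1 (310.6 CPM) and QCR6 (249.4 CPM). The others were LSO1 in H113N replicate 5 (4.438 CPM) and HHT2 in WT YFH1-off replicate 2 (1143 CPM), the lowest of its group.

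The YFH1 response differed between the H3 genotypes, by the interaction test itself, for 1808 genes. Among them were 106 reversed and 146 stronger genes. They also held 139 of the 195 genes named by rule, but that rule picked genes largely by their interaction. This share was therefore set in large part by the choice, and over all tested genes 30.8% were called. The YFH1 transcript had an interaction of 0.84 on the log2 scale.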

How the results depend on the processing

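Over the fits that left out 1 library each, the interaction was called for 1592 to 2255 genes, the H113N response for 940 to 1649, the WT response for 2671 to 3225, the end point for 2821 to 3471 and the baseline for 2433 to 2998. Weaker genes then numbered 1322 to 1807, reversed 75 to 175, stronger 100 to 206 and similar 258 to 445; WT replicate 2 gave the highest reversed count. At a BH threshold of 0.01 there were 41 reversed, 59 stronger and 198 similar genes, and 186 were similar under the narrower of the interval limits tried. Leaving out the genes of chromosomes I and II, an alternative chosen after seeing the data, gave 70 reversed genes (66 shared) and 97 stronger genes (85 shared). With a replicate block 1802 genes were called, 1723 of them shared. Scaling by library size alone put 65.9% of calls above 0, against 55.2%, and moved the median WT response of all genes to -0.107, so list medians near 0 changed sign. Of 4631 values for named genes 4529 kept their call, 40 lost it, 62 gained it and 0 reversed. Named genes were largely chosen by their interaction in these same data, so these counts do not measure how calls hold over all genes. Over all genes, the fits that left out 1 library each shared 1565 to 1753 of the 1808 interaction calls. They shared 74 to 101 of the 106 reversed genes and 95 to 127 of the 146 stronger genes. Of 1104 list medians 8 moved beyond the replicate spread. The causes were not tested. Limits: promoter swap and shutoff cannot be told apart, culture independence is not given, and genes near 3 counts have no reliable fold.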

Other observations

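Several gene groups outside the pathways above also had weaker responses. Of 15 phosphate starvation genes 8 were weaker and 1 reversed, with a median end point difference of 0.83 and a median baseline difference of -0.12. PHO8, the vacuolar alkaline phosphatase, averaged 132.9 ± 4.08 CPM in H113N YFH1-off, 128.1 ± 5.96 in H113N, 58.7 ± 3.65 in WT YFH1-off and 138.7 ± 7.06 in WT (SD, n = 4 each), and its interaction of 1.29 lay at the end point (1.18, against -0.12 at baseline). VTC3, which makes vacuolar polyphosphate, was reversed, with 0.25 in H113N and -0.92 in WT. Of 14 peroxisomal beta-oxidation genes 7 were weaker, and 13 were higher in H113N at the end point against 6 at baseline. ECI1, an enoyl-CoA isomerase, responded by 0.12 in H113N, not called, and -1.28 in WT.

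BIO2, the iron-sulfur enzyme biotin synthase, responded by -0.98 in H113N and -3.37 in WT, and BIO4, which acts before it, by -1.07 in H113N and -2.72 in WT. Both stood higher in H113N at the end point (by 3.36 and 3.31) and at baseline (by 0.97 and 1.66). CCP1, a heme peroxidase of mitochondria, fell by 1.33 in H113N and by 3.26 in WT on the log2 scale. GND1, a dehydrogenase of the pentose phosphate pathway, responded by 0.10 in H113N, not called, and 1.13 in WT. GTT2, a glutathione transferase, responded by 0.15 in H113N, not called, and 1.77 in WT. HSP78, a mitochondrial chaperone, rose by 0.63 in H113N and 2.31 in WT. TDH2, a glyceraldehyde phosphate dehydrogenase of which 31.3% of 50-base words recur elsewhere, was reversed, with 0.66 in H113N and -0.60 in WT. Of 142 genes within 20 kb of a chromosome end 40 were weaker, a share near the 25.4% of all tested genes, with a median interaction of -0.054.

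Among 33 proteasome genes 3 were weaker, 0 reversed, 1 stronger and 2 similar, with 6 called interactions; without WT replicate 2 the counts were 2 weaker, 4 reversed, 5 stronger and 3 similar, with 13 called interactions. The letters GGTGGCA of the Rpn4 site were found in 81.8% of their promoters and in 2.95% of all promoters. In chromosome V the medians of all 12 libraries outside the WT group lay between 0.067 and 0.12 above the rest of the genome.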
